A study of Rattus norvegicus with 24 samples.

Results

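The RT1 complex is the major histocompatibility complex of the rat. The deposited expression table holds 38 genes whose symbol begins with RT1-, of 20506 genes with a value, and all of them are described here. The rule that picks them uses the symbol and no measured value. By the letter that follows the prefix, 28 are class I genes and 10, named B, D or H, are class II genes. The gene table of the assembly GRCr8 places all 38 on chromosome 20 and lists 37 as protein coding and RT1-M10-1 as a long non-coding RNA.

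RNA was sequenced from 3 tissues of 2 inbred rat strains at 24 weeks of age, with 4 libraries for each tissue and strain and 24 libraries in all. The groups were SHR left ventricle and WKY left ventricle, SHR adrenal gland and WKY adrenal gland, and SHR superior cervical ganglion and WKY superior cervical ganglion. SHR, the spontaneously hypertensive rat, develops high blood pressure and a thickened left ventricle, and WKY, the Wistar-Kyoto rat, is its usual normotensive control. The adrenal gland releases steroids and catecholamines, and the superior cervical ganglion is a sympathetic ganglion of the neck. The labels give no treatment, sex, allele or pooling for any group, and the strains differ across the whole genome, so hypertension and the other differences between the strains cannot be told apart. They do not say that the libraries of a group came from separate rats, so every p-value measures the spread between libraries, which may be technical. Whether a replicate number marks the same rat in different tissues is not given either.

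Class I molecules are membrane proteins that pair with the small subunit B2m and show peptides made inside the cell to cytotoxic T cells, and nearly all nucleated cells carry them. Class II molecules are pairs of an alpha and a beta chain that show peptides from taken-up protein to helper T cells, and they are found mainly on dendritic cells, macrophages and B cells. In the rat, RT1-A encodes the classical class I molecules, while the RT1-CE, RT1-N, RT1-S, RT1-O, RT1-T24 and RT1-M series hold many non-classical class Ib genes, and inbred strains differ in the sequence and number of their class I copies.

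Levels are FPKM, sequenced fragments scaled to the length of the transcript and the size of the library, which allows levels of different genes to be compared. Sequencing depth is unknown, and the number of libraries sets the precision. Values of 4 libraries are listed by replicate number, means carry the SD (n = 4), and a strain difference is the mean log2(FPKM + 1) of SHR minus that of WKY, with its SE. This scale makes changes of weakly expressed genes look smaller than they are. A gene was called when the limma test gave a Benjamini-Hochberg adjusted p under 0.05 over all genes tested in that tissue. Reads from near-identical class I copies can be assigned to the wrong copy, so the value of a single copy is uncertain. In GRCr8 the spans of RT1-S2 and RT1-O1, of RT1-T24-3 and RT1-T24-4, and of RT1-CE4, RT1-CE5 and RT1-CE7 overlap, and whether reads were counted by strand is not given in the sources used here.

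The tissue labels were checked against marker genes. The summed FPKM of 6 heart muscle genes was 32832 to 37075 in the ventricle libraries and at most 15.9 elsewhere. That of 7 adrenal genes was 18039 to 21102 in the adrenal libraries and at most 854 elsewhere. That of 6 ganglion genes was 6683 to 7162 in the ganglion libraries. In the adrenal gland the ganglion genes reached 161 to 325 in SHR and 428 to 503 in WKY. Th is on both the adrenal and the ganglion list. A list of 25 interferon-response genes set 3 SHR libraries apart. Its mean log2(FPKM + 1) was 4.41 in SHR ventricle replicate 2 and 3.29 to 3.53 in the other SHR ventricle libraries, against 4.39 to 4.72 in WKY. It was 4.28 in SHR adrenal replicate 2 and 3.15 to 3.28 in the other SHR adrenal libraries, against 4.12 to 4.49 in WKY. In the ganglion it was 3.23 in SHR replicate 3 and 2.80 to 2.94 in the other SHR libraries, against 2.95 to 3.22 in WKY. The counts of called genes, and single genes where stated, are given with and without them.

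Most RT1 genes that could be tested differed between the strains, in both directions. In these bulk samples fewer cells that express a gene and less of its RNA per cell cannot be told apart. The submitters' processing notes name only the build Rnor_6.0. Strain differences in gene sequence and in RNA level can therefore not be told apart either, for class I or class II. In the left ventricle 23 of 28 tested RT1 genes were called, 5 higher and 18 lower in SHR, against 21.2% of all 12451 genes tested, 9.2% higher and 12% lower. In the adrenal gland 26 of 31 were called, 6 higher and 20 lower, against 41.2% of 12589 genes, 16.5% higher and 24.7% lower. In the ganglion 17 of 27 were called, 6 higher and 11 lower, against 10.8% of 12987 genes, 6.37% higher and 4.43% lower. The SHR and WKY libraries did not overlap for 22 RT1 genes in the ventricle, against 24.8% of all genes, for 26 in the adrenal gland, against 39.4%, and for 17 in the ganglion, against 17.2%. The median difference of the tested RT1 genes was -0.67 in the ventricle, -0.79 in the adrenal gland and -0.43 in the ganglion, where the medians of all genes were -0.03, -0.04 and 0.01. Without SHR ventricle replicate 2, 20 of 27 were called, without SHR adrenal replicate 2, 26 of 31, and without SHR ganglion replicate 3, 17 of 27, while without SHR ganglion replicate 1 the count was 11. The shares of all genes called in these reduced fits are not given here. A change in these counts can therefore not be told from a change over all genes. Without ventricle replicate 2, RT1-M3-1 (adjusted p = 0.0634) and RT1-S2 (adjusted p = 0.0679) lost the call. Without ganglion replicate 3, RT1-Bb (adjusted p = 0.0595) and RT1-DMa (adjusted p = 0.0856) lost it, and RT1-S3 and RT1-T24-3 gained one. SHR ganglion replicate 3 held the highest SHR ganglion value of RT1-S3 and of RT1-T24-3, so the gained calls add no support.

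A gene was tested in a tissue when it reached 1 FPKM in at least 4 of the 8 libraries, so a gene present in one strain could pass on that strain alone. This held for RT1-M1-2 and RT1-Db2 in the ventricle and for RT1-M2, RT1-M1-4 and RT1-M1-2 in the adrenal gland, which therefore had to differ. They are also among the genes without overlap and in the medians above. Without them, 21 of 26 genes were called in the ventricle, 4 higher and 17 lower, and 23 of 28 in the adrenal gland, 6 higher and 17 lower. In the ganglion no gene passed with every library of the other strain under 1 FPKM. There RT1-Db2, with 4 SHR and 1 WKY libraries at 1 FPKM or more, and RT1-DOb, with 1 SHR and 4 WKY libraries, came near it. The 6 genes tested in no tissue were RT1-M5, RT1-M4, RT1-M1-5, RT1-M10-1, RT1-T18 and RT1-Ha. RT1-M5 reached 1.17 FPKM at most, RT1-M4, RT1-M10-1, RT1-Ha and RT1-M1-5 stayed at or under 0.32 FPKM, and RT1-T18 was listed at 0 in all 24 libraries.

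Called higher in SHR in all 3 tissues were 4 class I genes, RT1-A1, RT1-CE2, RT1-CE4 and RT1-S2, and 1 class II gene, RT1-Db2, against 0.725% of the 10902 genes tested in all 3 tissues. Called lower in all 3 were 8 class I genes, RT1-N2, RT1-N3, RT1-T24-4, RT1-T24-1, RT1-CE13, RT1-CE10, RT1-CE5 and RT1-CE7, and 1 class II gene, RT1-Bb, against 0.926%. Of these, RT1-S2 and RT1-CE13 in the ventricle and RT1-CE7, RT1-T24-1, RT1-T24-4 and RT1-Bb in the ganglion lost the call in at least 1 alternative, most often when 1 library was left out. The ventricle call of RT1-Db2 was fixed by the level filter, as given above. The plot of strain differences shows each tested gene in the order in which it lies on the chromosome.

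**Figure D1:**
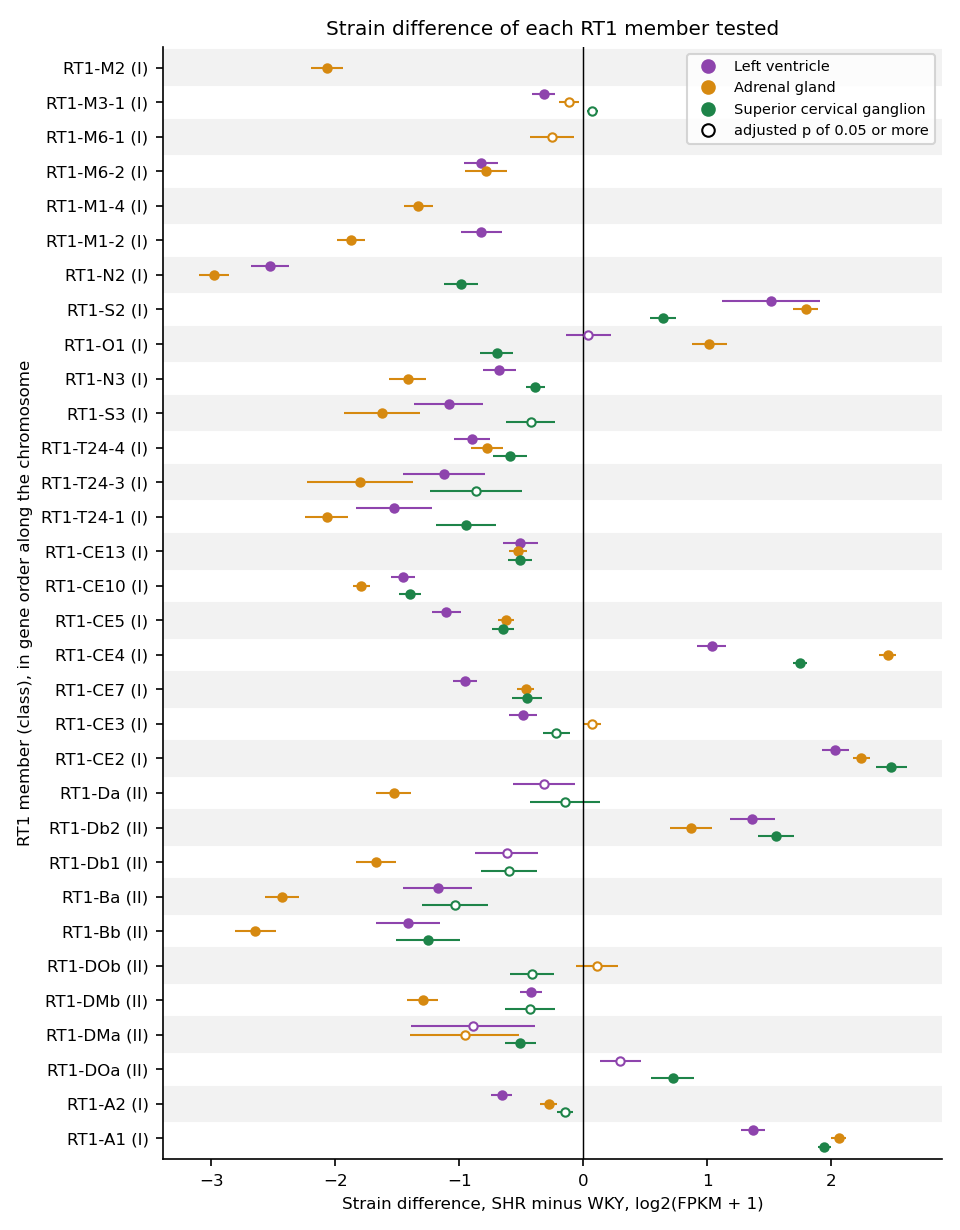
Strain difference in mean log2(FPKM + 1), SHR minus WKY, of each tested RT1 gene (class in brackets) in gene order along chromosome 20, with bars of 1 SE; filled points have an adjusted p under 0.05. RT1-A1, RT1-CE4, RT1-CE2, RT1-S2 and RT1-Db2 lie right of 0 in all 3 tissues and most of the other genes lie left of it.

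The promoters of 2 pairs of copies are shown because the members of each pair moved apart: RT1-A1 with RT1-A2, and RT1-CE4 with RT1-CE10. The sequences are RefSeq's, from GRCr8, and are the reference rat's, not the SHR or WKY alleles. Each stretch holds the 250 bases before the annotated start, at chr20:4906959-4907208 on the plus strand for RT1-A1, chr20:4872621-4872870 on the plus strand for RT1-A2, chr20:3509157-3509406 on the minus strand for RT1-CE4 and chr20:3384980-3385229 on the minus strand for RT1-CE10. Capitals mark a kappa B motif, a site type bound by NF-kappa B factors, whose letters are the first run of capitals in each sequence, and, where present, a Y box, GATTGG or its reverse complement CCAATC, a site type bound by NF-Y.
RT1-A1: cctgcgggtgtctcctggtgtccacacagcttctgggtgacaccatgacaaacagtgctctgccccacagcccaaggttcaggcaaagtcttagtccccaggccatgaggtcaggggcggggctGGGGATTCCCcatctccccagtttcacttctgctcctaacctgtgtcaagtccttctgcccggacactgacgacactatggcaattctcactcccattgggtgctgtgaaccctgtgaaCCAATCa
RT1-A2: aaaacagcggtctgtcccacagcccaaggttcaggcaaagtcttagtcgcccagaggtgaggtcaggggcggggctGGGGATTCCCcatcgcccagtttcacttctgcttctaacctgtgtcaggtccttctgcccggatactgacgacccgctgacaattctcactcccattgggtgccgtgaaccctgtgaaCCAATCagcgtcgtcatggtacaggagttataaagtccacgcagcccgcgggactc
RT1-CE4: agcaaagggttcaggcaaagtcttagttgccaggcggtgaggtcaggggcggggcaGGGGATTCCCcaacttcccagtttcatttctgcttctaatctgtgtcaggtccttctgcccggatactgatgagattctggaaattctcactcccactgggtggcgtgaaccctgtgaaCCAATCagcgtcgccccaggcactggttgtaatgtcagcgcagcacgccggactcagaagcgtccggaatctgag
RT1-CE10: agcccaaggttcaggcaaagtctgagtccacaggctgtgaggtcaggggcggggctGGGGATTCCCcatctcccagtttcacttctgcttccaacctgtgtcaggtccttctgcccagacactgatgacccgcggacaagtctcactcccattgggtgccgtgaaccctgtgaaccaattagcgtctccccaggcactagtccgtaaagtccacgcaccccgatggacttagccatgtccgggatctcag

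Promoter windows were found for 33 of the 38 genes, 24 of class I and 9 of class II. RT1-M2, RT1-M4, RT1-M1-4, RT1-CE7 and RT1-DMb had none. Each window ran from 250 bases before to 50 bases after the start, and both strands were searched. The kappa B motif, searched with exactly the letters shown, occurred in 5 of the 24 class I windows, those of RT1-A1, RT1-A2, RT1-CE4, RT1-CE10 and RT1-CE13, in 0 of the 9 class II windows, and in 0.114% of 33469 rat promoter windows. The motif begins 126 bases before the start in RT1-A1, 174 in RT1-A2 and 194 in both RT1-CE4 and RT1-CE10. The full windows of RT1-CE4 and RT1-CE10 are 83.1% identical and those of RT1-A1 and RT1-A2 67.2% identical in a global alignment. Gaps at the window ends lower this share, and the RT1-A1 and RT1-A2 windows are shifted against each other, as the motif positions show. These percentages thus do not rank how alike the pairs are. The 5 genes with the motif include RT1-A1 and RT1-CE4, which were higher in SHR, and RT1-CE10 and RT1-CE13, which were lower. Several of their windows resemble each other, as those of RT1-CE13 and RT1-A1 at 82.3% identical and RT1-CE10 and RT1-A2 at 75.3%. The 5 are thus not independent occurrences, and the count was not tested against the share of all windows.

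The classical class I gene RT1-A1 was the most abundant RT1 gene, with a mean of 422 FPKM over the 24 libraries, and it was 2.06 log2 units higher in the SHR adrenal gland. RT1-A1 measured 458, 479, 421 and 364 FPKM in the SHR ventricle libraries, against 186, 159.6, 169 and 148 FPKM in the WKY ventricle libraries. RT1-A1 measured 1316, 1398, 1258 and 1362 FPKM in the SHR adrenal libraries, against 295, 309.7, 344 and 327 FPKM in the WKY adrenal libraries. RT1-A1 measured 224, 215, 235 and 232 FPKM in the SHR ganglion libraries, against 63.1, 55.6, 55.0 and 58.6 FPKM in the WKY ganglion libraries. The strains were far apart in every tissue, with the lowest SHR library above the highest WKY library. The difference was 1.37 ± 0.10 (adjusted p = 1.3e-05) in the ventricle, 2.06 ± 0.06 (adjusted p = 2.09e-08) in the adrenal gland and 1.95 ± 0.05 (adjusted p = 7.09e-09) in the ganglion. It remained called in every alternative tried.

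RT1-A2, the other classical gene in the table, was lower in SHR in the ventricle and the adrenal gland and was not called in the ganglion. RT1-A2 measured 129.5, 147, 142 and 125 FPKM in the SHR ventricle libraries, against 247, 212, 215 and 188 FPKM in the WKY ventricle libraries. RT1-A2 measured 333, 366, 332 and 373 FPKM in the SHR adrenal libraries, against 398, 405, 479 and 424 FPKM in the WKY adrenal libraries. RT1-A2 measured 66.3, 63.0, 75.1 and 70.3 FPKM in the SHR ganglion libraries, against 82.8, 71.0, 73.2 and 76.9 FPKM in the WKY ganglion libraries. The strains were apart in the ventricle and the adrenal gland and overlapped in the ganglion. The difference was -0.66 ± 0.09 (adjusted p = 0.000779) in the ventricle and -0.28 ± 0.07 (adjusted p = 0.0116) in the adrenal gland, where quantile normalization took it to -0.14 with an adjusted p of 0.121, and -0.14 ± 0.06 (adjusted p = 0.193) in the ganglion. The ratio of RT1-A1 to RT1-A2 in a library was 2.91 to 3.96 in SHR and 0.718 to 0.787 in WKY over all tissues, so RT1-A1 led in every SHR library and RT1-A2 in every WKY library.

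The RT1-CE series, a cluster of class I genes, split into members that were higher and members that were lower in SHR. RT1-CE2 and RT1-CE4 were higher in every tissue. RT1-CE2 measured 45.4, 56.0, 54.0 and 43.1 FPKM in the SHR ventricle libraries, against 13.3, 10.4, 11.9 and 9.69 FPKM in the WKY ventricle libraries. RT1-CE2 measured 113, 134, 118 and 128 FPKM in the SHR adrenal libraries, against 23.8, 23.7, 26.3 and 27.0 FPKM in the WKY adrenal libraries. RT1-CE2 measured 23.8, 23.7, 25.8 and 26.9 FPKM in the SHR ganglion libraries, against 4.53, 3.29, 2.67 and 4.29 FPKM in the WKY ganglion libraries. No SHR library overlapped a WKY library, and the difference was 2.04 ± 0.11 (adjusted p = 2.12e-06), 2.25 ± 0.07 (adjusted p = 3.66e-08) and 2.49 ± 0.12 (adjusted p = 2.57e-06) in ventricle, adrenal gland and ganglion. RT1-CE4 measured 102, 125, 124 and 96.3 FPKM in the SHR ventricle libraries, against 64.0, 50.8, 55.4 and 45.9 FPKM in the WKY ventricle libraries. RT1-CE4 measured 307, 331, 296 and 281 FPKM in the SHR adrenal libraries, against 51.1, 54.3, 60.6 and 51.8 FPKM in the WKY adrenal libraries. RT1-CE4 measured 55.0, 49.0, 55.4 and 59.7 FPKM in the SHR ganglion libraries, against 16.1, 15.0, 15.4 and 15.6 FPKM in the WKY ganglion libraries. The strains were apart again, by 1.04 ± 0.12 (adjusted p = 0.000372), 2.46 ± 0.07 (adjusted p = 2.09e-08) and 1.75 ± 0.06 (adjusted p = 3.46e-08) in the same order of tissues.

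RT1-CE10 was lower in SHR throughout. RT1-CE10 measured 36.4, 45.7, 40.5 and 36.1 FPKM in the SHR ventricle libraries, against 129, 106, 109.6 and 98.6 FPKM in the WKY ventricle libraries. RT1-CE10 measured 56.3, 66.0, 63.9 and 68.7 FPKM in the SHR adrenal libraries, against 211, 215, 240.4 and 223 FPKM in the WKY adrenal libraries. RT1-CE10 measured 12.9, 12.8, 15.3 and 16.5 FPKM in the SHR ganglion libraries, against 44.1, 37.5, 35.8 and 39.9 FPKM in the WKY ganglion libraries. The lowest WKY library lay above the highest SHR library in each tissue, and the difference was -1.46 ± 0.10 (adjusted p = 9.08e-06) in the ventricle, -1.79 ± 0.07 (adjusted p = 2.12e-07) in the adrenal gland and -1.40 ± 0.09 (adjusted p = 8.9e-06) in the ganglion. The ratio of RT1-CE4 to RT1-CE10, a pair whose promoters are shown above, was 2.67 to 5.44 in SHR libraries and 0.233 to 0.506 in WKY libraries.

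RT1-CE5 and RT1-CE7, whose annotated spans overlap that of RT1-CE4, were lower in SHR, opposite to RT1-CE4. RT1-CE5 measured 84.9, 101, 94.0 and 76.0 FPKM in the SHR ventricle libraries, against 233, 185, 191 and 163 FPKM in the WKY ventricle libraries. RT1-CE5 measured 244, 257, 250.5 and 257 FPKM in the SHR adrenal libraries, against 358, 373, 436 and 389 FPKM in the WKY adrenal libraries. RT1-CE5 measured 32.6, 31.9, 32.5 and 36.0 FPKM in the SHR ganglion libraries, against 61.9, 46.1, 47.5 and 56.5 FPKM in the WKY ganglion libraries. The strains did not overlap, at -1.10 ± 0.12 (adjusted p = 0.000232), -0.62 ± 0.06 (adjusted p = 9.81e-05) and -0.65 ± 0.09 (adjusted p = 0.00179) in ventricle, adrenal gland and ganglion. RT1-CE7 measured 75.2, 94.2, 92.5 and 74.0 FPKM in the SHR ventricle libraries, against 180.4, 156, 166 and 149 FPKM in the WKY ventricle libraries. RT1-CE7 measured 137, 145, 134 and 146 FPKM in the SHR adrenal libraries, against 186, 190.3, 221 and 181 FPKM in the WKY adrenal libraries. RT1-CE7 measured 28.1, 26.5, 39.0 and 32.9 FPKM in the SHR ganglion libraries, against 46.5, 38.7, 41.2 and 46.5 FPKM in the WKY ganglion libraries. The ganglion libraries overlapped, through SHR replicate 3. The difference of RT1-CE7 was -0.95 ± 0.09 (adjusted p = 0.000131) in the ventricle, -0.46 ± 0.07 (adjusted p = 0.000779) in the adrenal gland and -0.45 ± 0.12 (adjusted p = 0.0452) in the ganglion, and the ganglion call was lost in 7 of the 8 fits that left out 1 library.

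RT1-CE13 was lower in all 3 tissues. RT1-CE13 measured 24.7, 41.7, 30.0 and 26.0 FPKM in the SHR ventricle libraries, against 41.9, 43.8, 44.2 and 41.9 FPKM in the WKY ventricle libraries. RT1-CE13 measured 44.2, 45.5, 41.4 and 50.2 FPKM in the SHR adrenal libraries, against 63.3, 67.9, 70.2 and 61.0 FPKM in the WKY adrenal libraries. RT1-CE13 measured 8.55, 10.3, 11.6 and 12.4 FPKM in the SHR ganglion libraries, against 15.8, 14.6, 16.7 and 15.0 FPKM in the WKY ganglion libraries. SHR ventricle replicate 2, one of the libraries set apart above, lay just under the lowest WKY library. The difference was -0.51 ± 0.14 (adjusted p = 0.0299), -0.52 ± 0.07 (adjusted p = 0.000433) and -0.51 ± 0.10 (adjusted p = 0.0082) in ventricle, adrenal gland and ganglion, and the ventricle call was lost in 7 of 8 fits that left out 1 library. Without SHR ventricle replicate 2 it was -0.66 (adjusted p = 0.000439). That library held the highest SHR value, so leaving it out had to make the ventricle difference more negative, and this adjusted p adds no support. RT1-CE3 measured 45.4, 53.6, 59.4 and 48.5 FPKM in the SHR ventricle libraries, against 86.1, 75.1, 71.6 and 59.4 FPKM in the WKY ventricle libraries. RT1-CE3 was lower there, with a difference of -0.49 ± 0.12 (adjusted p = 0.0151). It measured 88.0 to 103 FPKM in SHR and 83.6 to 99.5 FPKM in WKY in the adrenal gland, and 14.7 to 16.9 FPKM in SHR and 16.2 to 23.8 FPKM in WKY in the ganglion, and was called in neither.

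RT1-N2, a class Ib gene, was lower in SHR in all 3 tissues. RT1-N2 measured 4.71, 4.67, 3.79 and 3.33 FPKM in the SHR ventricle libraries, against 34.1, 27.1, 32.8 and 21.2 FPKM in the WKY ventricle libraries. RT1-N2 measured 3.25, 4.55, 4.43 and 3.57 FPKM in the SHR adrenal libraries, against 32.7, 34.9, 45.5 and 39.4 FPKM in the WKY adrenal libraries. RT1-N2 measured 6.10, 3.74, 4.69 and 4.34 FPKM in the SHR ganglion libraries, against 11.1, 8.33, 9.64 and 12.0 FPKM in the WKY ganglion libraries. SHR libraries lay at 3.25 to 6.10 FPKM in all tissues, while WKY libraries were higher and differed more between tissues. The difference was -2.52 ± 0.15 (adjusted p = 7.05e-06) in the ventricle, -2.98 ± 0.12 (adjusted p = 2.67e-07) in the adrenal gland and -0.98 ± 0.14 (adjusted p = 0.00172) in the ganglion. RT1-N3 measured 10.2, 14.7, 12.6 and 9.70 FPKM in the SHR ventricle libraries, against 21.0, 20.1, 20.5 and 15.6 FPKM in the WKY ventricle libraries. RT1-N3 measured 4.58, 7.69, 5.39 and 4.21 FPKM in the SHR adrenal libraries, against 14.1, 16.2, 17.6 and 16.0 FPKM in the WKY adrenal libraries. RT1-N3 measured 5.98, 5.21, 6.09 and 5.25 FPKM in the SHR ganglion libraries, against 8.34, 6.57, 7.98 and 7.77 FPKM in the WKY ganglion libraries. RT1-N3 was lower in SHR without overlap, with differences of -0.67 ± 0.13 (adjusted p = 0.00679), -1.41 ± 0.15 (adjusted p = 0.000114) and -0.38 ± 0.08 (adjusted p = 0.012) in ventricle, adrenal gland and ganglion.

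RT1-S2 and RT1-O1, whose spans overlap in GRCr8, are both class Ib genes. RT1-S2 measured 5.28, 5.42, 8.09 and 3.60 FPKM in the SHR ventricle libraries, against 2.78, 0.33, 2.48 and 0.44 FPKM in the WKY ventricle libraries. RT1-S2 measured 9.86, 13.3, 10.2 and 10.3 FPKM in the SHR adrenal libraries, against 2.42, 2.30, 2.55 and 2.35 FPKM in the WKY adrenal libraries. RT1-S2 measured 4.33, 3.95, 3.60 and 3.03 FPKM in the SHR ganglion libraries, against 2.04, 1.56, 2.22 and 2.25 FPKM in the WKY ganglion libraries. RT1-S2 was higher in SHR in each tissue, with WKY ventricle replicates 2 and 4 far below the other WKY libraries. The difference was 1.52 ± 0.40 (adjusted p = 0.0316) in the ventricle, lost in 5 of 8 fits that left out 1 library, 1.80 ± 0.10 (adjusted p = 2.28e-06) in the adrenal gland and 0.65 ± 0.11 (adjusted p = 0.00368) in the ganglion. The ratios of RT1-S2 in the authors' deposited table are smaller and are given further on. RT1-O1 measured 6.16, 6.56, 8.08 and 9.81 FPKM in the SHR adrenal libraries, against 2.6, 3.79, 3.12 and 3.42 FPKM in the WKY adrenal libraries. RT1-O1 measured 1.74, 1.88, 2.95 and 2.79 FPKM in the SHR ganglion libraries, against 4.58, 4.78, 3.5 and 4.64 FPKM in the WKY ganglion libraries. RT1-O1 was thus higher in the SHR adrenal gland, with a difference of 1.02 ± 0.14 (adjusted p = 0.000556), and lower in the SHR ganglion, with -0.70 ± 0.14 (adjusted p = 0.0087). RT1-O1 measured 4.21 to 8.78 FPKM in SHR ventricle and 4.69 to 6.73 FPKM in WKY ventricle, a difference of 0.04 ± 0.18 (adjusted p = 0.893).

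RT1-S3 and the RT1-T24 genes were lower in SHR in the ventricle and the adrenal gland. RT1-S3 measured 30.1, 70.1, 33.0 and 28.6 FPKM in the SHR ventricle libraries, against 89.7, 70.3, 91.4 and 73.9 FPKM in the WKY ventricle libraries. RT1-S3 measured 13.2, 33.9, 13.2 and 12.4 FPKM in the SHR adrenal libraries, against 45.2, 48.5, 64.5 and 55.4 FPKM in the WKY adrenal libraries. RT1-S3 measured 12.8, 11.8, 20.7 and 11.3 FPKM in the SHR ganglion libraries, against 24.0, 16.4, 16.9 and 18.6 FPKM in the WKY ganglion libraries. The libraries with high interferon-response genes, SHR ventricle replicate 2, SHR adrenal replicate 2 and SHR ganglion replicate 3, stood above the other SHR libraries. RT1-S3 differed by -1.08 ± 0.28 (adjusted p = 0.0301) in the ventricle, -1.62 ± 0.31 (adjusted p = 0.00442) in the adrenal gland and -0.42 ± 0.20 (adjusted p = 0.244) in the ganglion. Without the library set apart, RT1-S3 differed by -1.38 (adjusted p = 3.76e-05) in the ventricle, -1.95 (adjusted p = 1.2e-05) in the adrenal gland and -0.61 (adjusted p = 0.0205) in the ganglion. That library held the highest SHR value of RT1-S3 in each tissue, so leaving it out had to make the difference more negative. The adjusted p-values without it add no support. The ventricle call was lost in 7 of 8 fits that left out 1 library, the fit without SHR replicate 2 being the exception.

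RT1-T24-3 measured 54.0, 125, 54.0 and 40.6 FPKM in the SHR ventricle libraries, against 161, 121, 144 and 124 FPKM in the WKY ventricle libraries. RT1-T24-3 measured 7.03, 24.9, 9.27 and 5.01 FPKM in the SHR adrenal libraries, against 29.7, 30.0, 45.0 and 42.2 FPKM in the WKY adrenal libraries. RT1-T24-3 measured 16.4, 10.5, 34.1 and 11.4 FPKM in the SHR ganglion libraries, against 35.9, 23.2, 30.5 and 33.1 FPKM in the WKY ganglion libraries. The same 3 SHR libraries were the high ones, and those of ventricle and ganglion reached the WKY range. RT1-T24-3 differed by -1.12 ± 0.33 (adjusted p = 0.0499) in the ventricle, -1.80 ± 0.43 (adjusted p = 0.0128) in the adrenal gland and -0.86 ± 0.37 (adjusted p = 0.211) in the ganglion. The ventricle call was lost in 7 of 8 fits that left out 1 library, and without the library set apart the differences were -1.46 (adjusted p = 0.000124), -2.23 (adjusted p = 0.000276) and -1.21 (adjusted p = 0.0111). Leaving out the highest SHR library had to make them more negative, so these adjusted p-values add no support.

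RT1-T24-4 measured 64.7, 103, 71.7 and 63.2 FPKM in the SHR ventricle libraries, against 161, 135, 135 and 127 FPKM in the WKY ventricle libraries. RT1-T24-4 measured 38.1, 62.9, 46.1 and 45.9 FPKM in the SHR adrenal libraries, against 80.3, 74.3, 88.2 and 85.5 FPKM in the WKY adrenal libraries. RT1-T24-4 measured 16.8, 13.4, 20.4 and 14.4 FPKM in the SHR ganglion libraries, against 28.9, 21.3, 22.8 and 26.5 FPKM in the WKY ganglion libraries. RT1-T24-4, whose span overlaps that of RT1-T24-3, was lower in SHR without overlap in each tissue. It differed by -0.90 ± 0.15 (adjusted p = 0.00355), -0.77 ± 0.13 (adjusted p = 0.00176) and -0.59 ± 0.14 (adjusted p = 0.0269) in ventricle, adrenal gland and ganglion. RT1-T24-1 measured 8.90, 23.9, 13.0 and 7.76 FPKM in the SHR ventricle libraries, against 40.5, 33.8, 39.6 and 34.2 FPKM in the WKY ventricle libraries. RT1-T24-1 measured 1.67, 2.15, 2.65 and 1.47 FPKM in the SHR adrenal libraries, against 11.3, 8.76, 15.4 and 11.0 FPKM in the WKY adrenal libraries. RT1-T24-1 measured 2.11, 0.84, 2.90 and 0.95 FPKM in the SHR ganglion libraries, against 4.80, 4.06, 3.44 and 3.58 FPKM in the WKY ganglion libraries. RT1-T24-1 was lower in SHR as well, without overlap. Its difference was -1.52 ± 0.31 (adjusted p = 0.0122), -2.07 ± 0.17 (adjusted p = 2.76e-05) and -0.94 ± 0.24 (adjusted p = 0.0416). In the ganglion the calls were lost in 6 of 8 fits that left out 1 library for RT1-T24-4 and in 7 of 8 for RT1-T24-1. Without the library set apart RT1-T24-1 differed by -1.83 (adjusted p = 9.75e-05), -2.10 (adjusted p = 0.00014) and -1.15 (adjusted p = 0.00783). In the ventricle and the ganglion that library held the highest SHR value, so leaving it out had to make the difference more negative. The adjusted p-values without it add no support there.

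The RT1-M series lies at one end of the complex and was weakly expressed except for RT1-M3-1, whose mouse counterpart presents N-formylated peptides. RT1-M3-1 measured 11.2, 11.0, 11.2 and 11.7 FPKM in the SHR ventricle libraries, against 16.3, 12.7, 16.0 and 12.6 FPKM in the WKY ventricle libraries. RT1-M3-1 was lower in the SHR ventricle, with a difference of -0.32 ± 0.09 (adjusted p = 0.0327), a call lost in 6 of 8 fits that left out 1 library. In the adrenal gland it measured 22.0 to 26.6 FPKM in SHR and 24.4 to 29.9 FPKM in WKY, and in the ganglion, where it was highest, 42.0 to 45.7 FPKM in SHR and 40.0 to 43.3 FPKM in WKY, and it was called in neither.

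Weakly expressed RT1-M genes that were lower in the SHR adrenal gland were RT1-M2, RT1-M1-4, RT1-M1-2 and RT1-M6-2. RT1-M2 measured 0, 0.13, 0 and 0.18 FPKM in the SHR adrenal libraries, against 3.31, 2.81, 3.51 and 4.54 FPKM in the WKY adrenal libraries. RT1-M1-4 measured 0.19, 0, 0.13 and 0.06 FPKM in the SHR adrenal libraries, against 1.97, 1.58, 2.12 and 1.37 FPKM in the WKY adrenal libraries. RT1-M1-2 measured 0.70, 0.34, 0.29 and 0.45 FPKM in the SHR adrenal libraries, against 3.88, 4.73, 4.52 and 3.94 FPKM in the WKY adrenal libraries. Each was present at 1.37 FPKM or more in every WKY adrenal library and stayed under 1 FPKM in every SHR adrenal library. RT1-M2, RT1-M1-4 and RT1-M1-2 thus passed the level filter there through WKY libraries only. They had to differ, and their adjusted p-values add no support. The differences were -2.07 ± 0.13 (adjusted p = 4.34e-06) for RT1-M2, -1.33 ± 0.12 (adjusted p = 3.89e-05) for RT1-M1-4 and -1.87 ± 0.11 (adjusted p = 3.95e-06) for RT1-M1-2. RT1-M1-2 measured 0.40, 0.94, 0.51 and 0.93 FPKM in the SHR ventricle libraries, against 2.36, 2.63, 1.51 and 1.51 FPKM in the WKY ventricle libraries. RT1-M6-2 measured 1.42, 0.66, 1.49 and 1.01 FPKM in the SHR ventricle libraries, against 2.71, 2.39, 3.04 and 2.87 FPKM in the WKY ventricle libraries. RT1-M6-2 measured 2.0, 1.06, 2.19 and 1.54 FPKM in the SHR adrenal libraries, against 4.24, 2.94, 4.5 and 2.89 FPKM in the WKY adrenal libraries. RT1-M1-2 was lower in the SHR ventricle, with a difference of -0.82 ± 0.16 (adjusted p = 0.00627), where it also passed the filter through WKY libraries only. RT1-M6-2 was lower with -0.82 ± 0.14 (adjusted p = 0.0025) in the ventricle and -0.79 ± 0.17 (adjusted p = 0.00535) in the adrenal gland. RT1-M6-1, whose promoter window is 96.0% identical to that of RT1-M6-2, measured 0.75 to 1.75 FPKM in SHR adrenal and 1.08 to 2.18 FPKM in WKY adrenal and was not called there.

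Because copies share reads, the FPKM of all 28 class I genes was summed in each library. The sum was 1196, 1513, 1273 and 1065 in SHR ventricle, against 1718, 1431, 1526 and 1323 in WKY ventricle, and the strains overlapped. In the adrenal gland it was 2749.9, 3029, 2713 and 2892 in SHR, against 1927, 1986, 2303 and 2079 in WKY, with every SHR library above every WKY library. In the ganglion it was 579, 541, 649 and 603 in SHR, against 523, 427, 443 and 486 in WKY, again with no overlap. The log2 ratio of the strain means, SHR over WKY, was -0.25 in the ventricle, 0.46 in the adrenal gland and 0.33 in the ganglion. It rests on RT1-A1: without this gene it was -0.68, -0.21 and -0.17. The class I sum was highest in the adrenal gland, where it made up 0.572% of the library's FPKM in SHR and 0.406% in WKY, and lowest in the ganglion, at 0.129% in SHR and 0.102% in WKY.

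**Figure D2:**
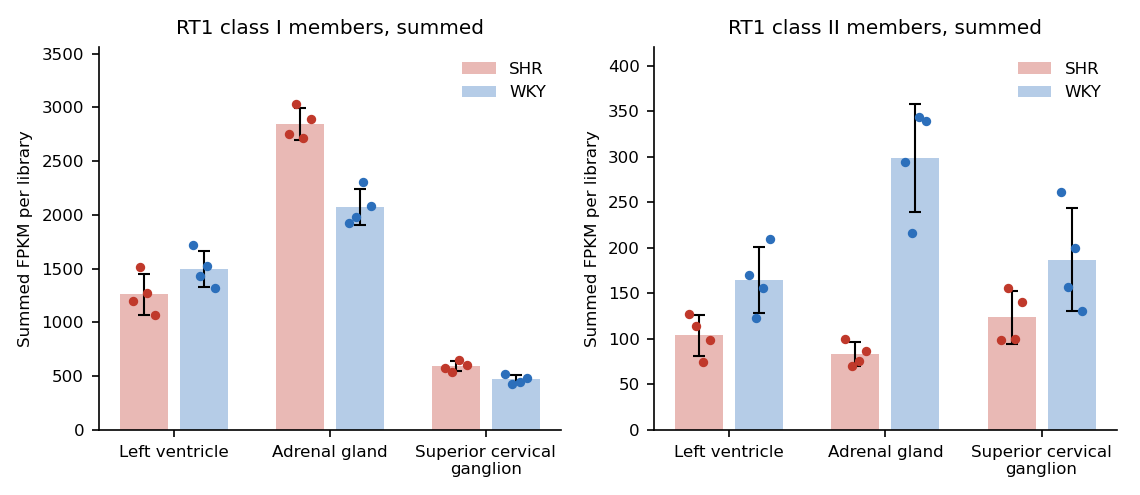
Summed FPKM per library of the 28 class I genes (left) and the 10 class II genes (right) by tissue and strain; points are libraries, bars are means of 4 and error bars the SD. The SHR class I sums lie above the WKY sums in the adrenal gland and the ganglion, and the SHR class II sums lie below the WKY sums in the adrenal gland without overlap.

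The make-up of the class I sum differed between the strains. RT1-A1 gave 34.3% of it in SHR ventricle and 11.0% in WKY ventricle, 46.9% in SHR adrenal and 15.4% in WKY adrenal, and 38.3% in SHR ganglion and 12.4% in WKY ganglion. The 4 class I genes called higher in all tissues together gave 47.6 ± 2.9%, 62.3 ± 0.83% and 52.4 ± 2.1% in SHR ventricle, adrenal gland and ganglion, against 15.5 ± 0.097%, 19.4 ± 0.38% and 16.9 ± 0.55% in WKY. The 8 called lower gave 27.5 ± 1.1%, 19.7 ± 0.44% and 19.9 ± 0.54% in SHR, against 49.0 ± 0.44%, 49.2 ± 0.54% and 42.1 ± 0.60% in WKY. These sets were formed from the same values, so their shares are a description.

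**Figure D3:**
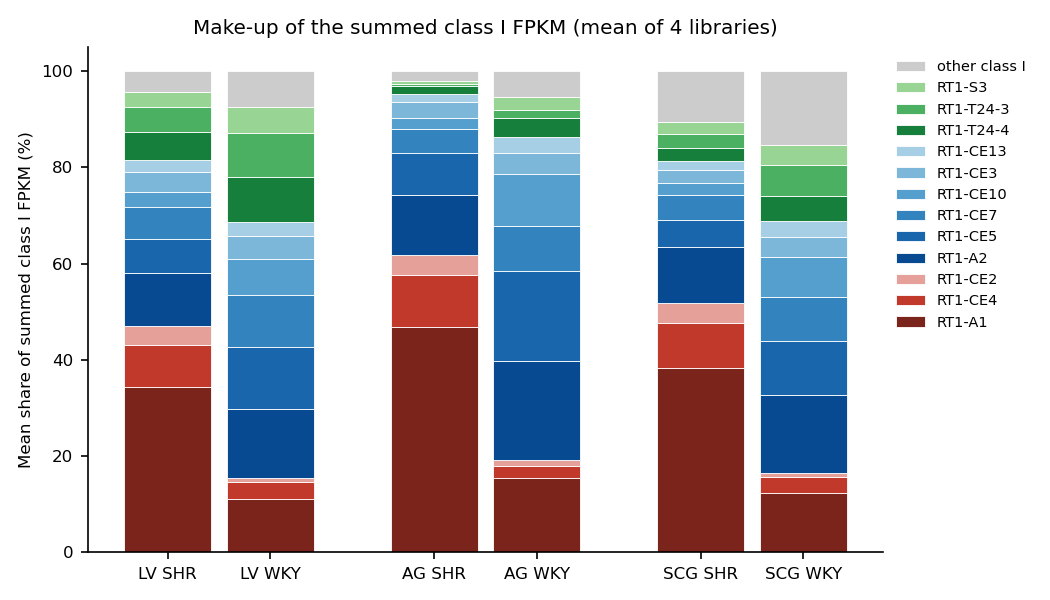
Mean share of the summed class I FPKM (%) from each class I gene, for SHR and WKY in left ventricle (LV), adrenal gland (AG) and superior cervical ganglion (SCG); the 16 class I genes not listed are joined as other class I. The red blocks (RT1-A1, RT1-CE4 and RT1-CE2) are wider in SHR in every tissue, and RT1-A1 alone is 46.9% in SHR adrenal and 15.4% in WKY adrenal.

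The promoters of RT1-S3 and RT1-N3 are shown because they hold GAAA, any 2 bases and GAAA again, a simple form of the element bound by interferon-regulated factors, and because RT1-S3 was among the genes high in the 3 libraries set apart. They come from RefSeq, GRCr8, at chr20:2675328-2675527 on the plus strand for RT1-S3 and chr20:2666259-2666488 on the plus strand for RT1-N3, and run up to the annotated start. Capitals mark the element, here on the reverse strand, where it reads TTTC, any 2 bases and TTTC, and Y boxes.
RT1-S3: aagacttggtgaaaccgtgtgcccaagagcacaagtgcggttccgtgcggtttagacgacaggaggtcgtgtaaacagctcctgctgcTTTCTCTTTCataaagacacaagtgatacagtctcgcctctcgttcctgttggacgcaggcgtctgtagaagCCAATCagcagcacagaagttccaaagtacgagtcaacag
RT1-N3: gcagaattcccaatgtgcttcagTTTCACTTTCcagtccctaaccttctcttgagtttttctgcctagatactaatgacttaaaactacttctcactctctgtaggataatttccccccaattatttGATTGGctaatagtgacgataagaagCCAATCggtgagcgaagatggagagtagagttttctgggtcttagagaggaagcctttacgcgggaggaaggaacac

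The element was searched only with the letters given above. They were found in 3 of 24 class I windows, those of RT1-S3, RT1-N3 and RT1-S2. They were found in 0 of 9 class II windows and in 3.92% of all windows. The windows of RT1-T24-3 and RT1-T24-1 do not hold these letters. A window without them may still hold another form of the element. The printed promoters of RT1-A1, RT1-A2 and RT1-CE10 hold tttcacttct, and that of RT1-CE4 holds tttcatttct. Both depart from the searched letters only in their last bases and were not counted. Whether they act as interferon elements was not tested.

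In SHR ventricle replicate 2, 7 of 20 tested class I genes were above 1.5 times the mean of the other SHR ventricle libraries, among them RT1-T24-3 at 2.53 times, RT1-T24-1 at 2.41 times and RT1-S3 at 2.30 times. In SHR adrenal replicate 2 there were 4 of 23, RT1-T24-3 at 3.51 times, RT1-S3 at 2.62 times, RT1-N3 at 1.63 times and RT1-M2, which was at or near 0 in all SHR adrenal libraries. In SHR ganglion replicate 3 there were 3 of 18, RT1-T24-3 at 2.68 times, RT1-T24-1 at 2.23 times and RT1-S3 at 1.72 times. RT1-A1 was at 1.16, 1.06 and 1.05 times the mean of the other SHR libraries in these 3 libraries. Of the class II genes, RT1-DMa in the ventricle passed 1.5 times, beside a library in which it was listed at 0, while 0 of 8 adrenal and 0 of 9 ganglion class II genes did. The share of all genes above 1.5 times was not computed, nor were counts for the other SHR libraries. Whether class I stands out in these libraries can therefore not be told from the counts.

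The strains differed on the interferon list as well. Of its genes, 1 was higher and 20 were lower of 25 tested in the SHR ventricle, 3 were higher and 15 lower of 25 in the SHR adrenal gland, and 3 were higher and 3 lower of 24 in the SHR ganglion. Of all genes tested, 21.2% (ventricle), 41.2% (adrenal gland) and 10.8% (ganglion) were called. The median differences were -0.98, -0.99 and -0.11. RT1-S3, RT1-T24-3 and RT1-T24-1 were lower in the SHR ventricle and adrenal gland, while RT1-A1 was higher in all 3, and the part of the interferon-response genes in any RT1 difference was not tested.

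**Figure D4:**
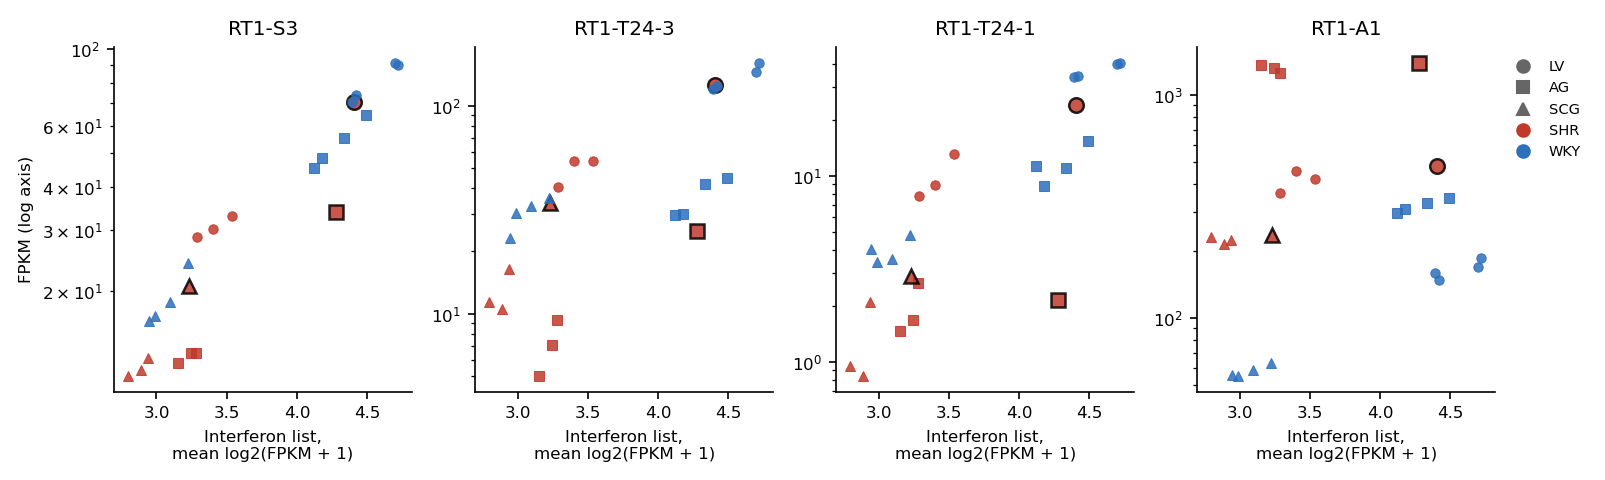
FPKM of RT1-S3, RT1-T24-3, RT1-T24-1 and RT1-A1 (log axis) against the mean log2(FPKM + 1) of 25 interferon-response genes in each of the 24 libraries; the large outlined points are SHR ventricle replicate 2, SHR adrenal replicate 2 and SHR ganglion replicate 3. These 3 libraries lie right of the other SHR libraries of their tissue, and RT1-S3 and RT1-T24-3 are higher in them, with RT1-S3 at 70.1, 33.9 and 20.7 FPKM, while RT1-A1 stays near the other SHR libraries.

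The promoters of the class II genes that encode the presenting pairs are shown because the Y box is shared by their family: RT1-Ba and RT1-Bb encode the chains of the molecule that corresponds to human HLA-DQ, RT1-Da and RT1-Db1 those of the molecule that corresponds to human HLA-DR. Each stretch is the 150 bases before the start in RefSeq, GRCr8, at chr20:4576907-4577056 on the plus strand for RT1-Ba, chr20:4604119-4604268 on the minus strand for RT1-Bb, chr20:4515265-4515414 on the plus strand for RT1-Da and chr20:4560163-4560312 on the minus strand for RT1-Db1. Capitals mark the Y box on either strand.
RT1-Ba: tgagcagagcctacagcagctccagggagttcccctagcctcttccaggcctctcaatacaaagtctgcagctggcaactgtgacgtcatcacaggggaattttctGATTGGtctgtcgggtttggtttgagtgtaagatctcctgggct
RT1-Bb: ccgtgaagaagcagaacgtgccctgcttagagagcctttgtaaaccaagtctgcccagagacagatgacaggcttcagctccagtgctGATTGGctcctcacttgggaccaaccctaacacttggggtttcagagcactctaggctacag
RT1-Da: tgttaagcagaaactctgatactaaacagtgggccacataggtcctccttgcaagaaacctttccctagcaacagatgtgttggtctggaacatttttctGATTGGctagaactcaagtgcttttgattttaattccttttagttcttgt
RT1-Db1: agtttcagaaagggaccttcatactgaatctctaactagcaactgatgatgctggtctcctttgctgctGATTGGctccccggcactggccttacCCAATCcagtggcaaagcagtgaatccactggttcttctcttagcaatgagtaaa

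The letters GATTGG, on either strand, were found in 9 of 9 class II windows, in 12 of 24 class I windows and in 14.8% of all windows. On the forward strand the motif begins 44 bases before the start in RT1-Ba, 62 in RT1-Bb, 50 in RT1-Da and 81 in RT1-Db1.

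Of the class II genes tested, 1 was higher and 5 lower of 8 in the SHR adrenal gland, 1 higher and 3 lower of 8 in the SHR ventricle, and 2 higher and 2 lower of 9 in the SHR ganglion. Of all genes tested, 41.2%, 21.2% and 10.8% were called in these tissues. The class II gene called higher in the ventricle was RT1-Db2, which passed the level filter there through SHR libraries only. The most negative adrenal differences of class II were those of RT1-Bb and RT1-Ba. RT1-Ba measured 19.3, 12.8, 8.42 and 11.3 FPKM in the SHR ventricle libraries, against 32.1, 19.5, 28.8 and 40.5 FPKM in the WKY ventricle libraries. RT1-Ba measured 12.2, 9.79, 8.84 and 10.5 FPKM in the SHR adrenal libraries, against 60.6, 45.2, 68.3 and 67.7 FPKM in the WKY adrenal libraries. RT1-Ba measured 15.4, 26.1, 15.2 and 21.8 FPKM in the SHR ganglion libraries, against 60.5, 33.8, 43.0 and 29.6 FPKM in the WKY ganglion libraries. The strains did not overlap in any tissue, although in the ventricle and the ganglion they came close. RT1-Ba differed by -1.17 ± 0.28 (adjusted p = 0.0205) in the ventricle, lost in 3 of 8 fits that left out 1 library, -2.43 ± 0.14 (adjusted p = 3.36e-06) in the adrenal gland and -1.03 ± 0.27 (adjusted p = 0.054) in the ganglion. RT1-Bb measured 11.3, 10.4, 6.13 and 8.98 FPKM in the SHR ventricle libraries, against 30.1, 16.0, 24.7 and 36.0 FPKM in the WKY ventricle libraries. RT1-Bb measured 10.2, 6.71, 6.48 and 7.98 FPKM in the SHR adrenal libraries, against 50.7, 41.2, 63.0 and 62.7 FPKM in the WKY adrenal libraries. RT1-Bb measured 11.5, 18.5, 11.5 and 16.7 FPKM in the SHR ganglion libraries, against 50.4, 31.1, 40.3 and 24.4 FPKM in the WKY ganglion libraries. RT1-Bb followed RT1-Ba from library to library and did not overlap between strains. Its difference was -1.41 ± 0.26 (adjusted p = 0.00745), -2.65 ± 0.17 (adjusted p = 8.32e-06) and -1.25 ± 0.26 (adjusted p = 0.0226) in ventricle, adrenal gland and ganglion, and the ganglion call was lost in 4 of 8 fits that left out 1 library, SHR replicate 3 among them (adjusted p = 0.0595).

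RT1-Da and RT1-Db1 were lower in SHR in the adrenal gland. RT1-Da measured 43.4, 37.3, 21.2 and 30.0 FPKM in the SHR ventricle libraries, against 43.8, 27.8, 39.4 and 52.8 FPKM in the WKY ventricle libraries. RT1-Da measured 36.1, 27.9, 28.3 and 34.3 FPKM in the SHR adrenal libraries, against 95.0, 69.2, 106 and 105 FPKM in the WKY adrenal libraries. RT1-Da measured 35.8, 58.9, 35.6 and 48.3 FPKM in the SHR ganglion libraries, against 74.3, 42.0, 52.8 and 33.2 FPKM in the WKY ganglion libraries. The strains were apart in the adrenal gland and overlapped in the ventricle and the ganglion. The difference of RT1-Da was -0.32 ± 0.25 (adjusted p = 0.418), -1.53 ± 0.14 (adjusted p = 7.89e-05) and -0.15 ± 0.28 (adjusted p = 0.817) in ventricle, adrenal gland and ganglion. RT1-Db1 measured 21.7, 16.6, 10.4 and 15.5 FPKM in the SHR ventricle libraries, against 26.7, 17.2, 21.9 and 34.5 FPKM in the WKY ventricle libraries. RT1-Db1 measured 22.0, 14.7, 16.5 and 18.8 FPKM in the SHR adrenal libraries, against 59.3, 43.6, 70.4 and 66.0 FPKM in the WKY adrenal libraries. RT1-Db1 measured 18.5, 29.2, 19.99 and 29.1 FPKM in the SHR ganglion libraries, against 48.6, 31.8, 41.4 and 27.6 FPKM in the WKY ganglion libraries. RT1-Db1 gave the same picture, with -0.62 ± 0.25 (adjusted p = 0.124), -1.67 ± 0.16 (adjusted p = 0.000102) and -0.60 ± 0.22 (adjusted p = 0.154).

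RT1-Db2, a further beta chain gene of the RT1-D set, was higher in SHR in every tissue, at a far lower level than RT1-Db1. RT1-Db2 measured 3.49, 2.65, 1.61 and 2.71 FPKM in the SHR ventricle libraries, against 0.84, 0.19, 0.28 and 0.28 FPKM in the WKY ventricle libraries. RT1-Db2 measured 4.44, 2.14, 2.52 and 3.09 FPKM in the SHR adrenal libraries, against 1.15, 0.94, 1.47 and 1.13 FPKM in the WKY adrenal libraries. RT1-Db2 measured 3.32, 4.75, 4.30 and 4.93 FPKM in the SHR ganglion libraries, against 0.98, 1.21, 0.46 and 0.63 FPKM in the WKY ganglion libraries. Every SHR library was above every WKY library of its tissue. In the ventricle RT1-Db2 passed the level filter through SHR libraries only, so it had to differ there and its adjusted p adds no support. In the ganglion 4 SHR libraries and only 1 WKY library reached the filter level, so the filter favoured a difference there too. The difference was 1.37 ± 0.18 (adjusted p = 0.000873), 0.87 ± 0.17 (adjusted p = 0.00274) and 1.56 ± 0.15 (adjusted p = 8.66e-05) in ventricle, adrenal gland and ganglion, and in the ventricle the gene fell below the level filter when any SHR library was left out.

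RT1-DMa and RT1-DMb encode the chains of DM, which helps to load peptides onto class II. RT1-DMb measured 26.0, 27.8, 23.7 and 25.4 FPKM in the SHR ventricle libraries, against 29.8, 37.7, 33.7 and 38.3 FPKM in the WKY ventricle libraries. RT1-DMb measured 5.82, 4.28, 4.35 and 4.90 FPKM in the SHR adrenal libraries, against 12.9, 10.8, 14.2 and 15.5 FPKM in the WKY adrenal libraries. RT1-DMb was lower in SHR without overlap in both tissues, with differences of -0.42 ± 0.09 (adjusted p = 0.00776) in the ventricle and -1.29 ± 0.12 (adjusted p = 6.13e-05) in the adrenal gland, and in the ganglion it measured 4.37 to 6.94 FPKM in SHR and 6.01 to 11.3 FPKM in WKY (-0.43 ± 0.20, adjusted p = 0.251). The ratio of RT1-DMa to RT1-DMb averaged 0.095 in SHR and 0.129 in WKY ventricle, and 0.98 to 1.18 in the other groups. The cause of the high RT1-DMb in the ventricle was not tested. RT1-DMa measured 0, 4.69, 2.17 and 3.06 FPKM in the SHR ventricle libraries, against 4.20, 3.63, 4.86 and 5.08 FPKM in the WKY ventricle libraries. RT1-DMa measured 6.43, 4.02, 6.47 and 5.77 FPKM in the SHR adrenal libraries, against 13.8, 3.79, 17.8 and 19.1 FPKM in the WKY adrenal libraries. RT1-DMa measured 5.16, 5.95, 4.66 and 6.49 FPKM in the SHR ganglion libraries, against 9.87, 7.63, 9.37 and 6.60 FPKM in the WKY ganglion libraries. RT1-DMa was listed at 0 in SHR ventricle replicate 1, where RT1-DMb measured 26.0 FPKM, and WKY adrenal replicate 2 was far below the other WKY adrenal libraries. Its difference was -0.89 ± 0.50 (adjusted p = 0.252) in the ventricle, -0.96 ± 0.44 (adjusted p = 0.119) in the adrenal gland and -0.51 ± 0.13 (adjusted p = 0.0317) in the ganglion. Without WKY adrenal replicate 2 the adrenal difference was -1.43 (adjusted p = 0.000436), and the ganglion call was lost in 6 of 8 fits that left out 1 library. WKY adrenal replicate 2 held the lowest WKY value, so leaving it out had to make the adrenal difference more negative, and that adjusted p adds no support.

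RT1-DOa and RT1-DOb encode DO, which modulates DM. RT1-DOa measured 3.59, 4.29, 2.59 and 4.80 FPKM in the SHR ganglion libraries, against 2.34, 1.43, 2.42 and 1.44 FPKM in the WKY ganglion libraries. RT1-DOa was higher in the SHR ganglion, by 0.73 ± 0.17 (adjusted p = 0.0266), lost in 5 of 8 fits that left out 1 library. In the ventricle it measured 1.0 to 2.07 FPKM in SHR and 0.65 to 1.57 FPKM in WKY and was not called. RT1-DOb stayed at or under 2.74 FPKM in all libraries and was called in neither tissue in which it was tested, the adrenal gland and the ganglion.

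The sum over the 10 class II genes was 128, 114, 74.9 and 99.1 FPKM in SHR ventricle, against 170.1, 123, 156 and 209.8 FPKM in WKY ventricle. It was 99.4, 70.4, 76.1 and 87.3 FPKM in SHR adrenal, against 295, 217, 344 and 339 FPKM in WKY adrenal. In the ganglion it was 98.6, 156, 99.5 and 140.1 FPKM in SHR, against 261, 157, 199.9 and 131 FPKM in WKY. The adrenal sums did not overlap, and the ventricle and ganglion sums did. The log2 ratio of means, SHR over WKY, was -0.66, -1.84 and -0.60 in ventricle, adrenal gland and ganglion. RT1-DMb gave 25.5% of the class II sum in SHR ventricle and 22.0% in WKY ventricle, and 4.33% to 5.82% in the other groups.

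Markers of leukocytes, the cells that carry most class II, moved with the class II genes in the adrenal gland. Of 16 markers, 9 were lower and 0 higher of 10 tested in the SHR adrenal gland, where 24.7% of all genes were lower, and their summed FPKM was 33.9 to 45.1 in SHR and 61.7 to 83.6 in WKY. Ptprc, which encodes the common leukocyte antigen, was at 1.14 ± 0.22 FPKM in SHR and 2.74 ± 0.69 FPKM in WKY (-0.79 ± 0.15, adjusted p = 0.0024). Aif1, a macrophage gene, was at 6.08 ± 1.47 FPKM in SHR and 15.7 ± 3.39 FPKM in WKY (-1.24 ± 0.18, adjusted p = 0.000715). In the ventricle the sum was 75.3 to 115 in SHR and 59.7 to 101 in WKY, with 1 of 11 tested higher and 0 lower, beside 21.2% of all genes called. In the ganglion it was 37.1 to 45.3 in SHR and 42.7 to 68.1 in WKY, with 2 of 9 lower and 0 higher, beside 10.8%. The B cell marker Cd79b, the T cell marker Cd3e and the dendritic cell marker Xcr1 did not reach 1 FPKM in any library, and Xcr1 was listed at 0 in all SHR adrenal libraries. Medulla genes of the adrenal gland were lower in SHR too, with Chga at 502 ± 143 FPKM in SHR and 850.1 ± 58.1 FPKM in WKY and Pnmt and Th likewise called lower. The cortex genes Star and Cyp11b2 were called higher. The other cortex genes among the 7 adrenal genes, Cyp11a1 and Nr5a1, were not called. The part of leukocytes or of adrenal make-up in the class II difference was not tested.

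The class II pathway was read on 11 genes for loading and control. In the adrenal gland 5 of 9 tested were lower in SHR and 0 higher, beside the background of 41.2%. Cd74, the invariant chain that guards the class II groove, was at 81.3 ± 14.3 FPKM in SHR and 197 ± 31.5 FPKM in WKY (-1.27 ± 0.15, adjusted p = 0.000249). Ctss, a protease that trims Cd74, was at 13.7 ± 2.27 FPKM in SHR and 47.9 ± 6.17 FPKM in WKY (-1.74 ± 0.13, adjusted p = 1.36e-05). Lgmn, Ifi30 and Ctsl were lower as well. In the ventricle 1 of 8 was higher, Lgmn, and 0 lower, beside 21.2% of all genes called, and Cd74 was at 254 ± 23.7 FPKM in SHR and 310.2 ± 35.7 FPKM in WKY (-0.29 ± 0.09, adjusted p = 0.0512). In the ganglion Lgmn was higher and Ctss lower of 9 tested, beside 10.8%, with Ctss at 10.5 ± 1.85 FPKM in SHR and 23.0 ± 4.71 FPKM in WKY (-1.06 ± 0.15, adjusted p = 0.00288).

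Genes that load class I were called in both directions. Of 15 listed and tested, 1 was higher and 5 lower in the SHR ventricle, 2 higher and 6 lower in the SHR adrenal gland, and 2 higher and 1 lower in the SHR ganglion. That is 40%, 53.3% and 20% called, beside 21.2%, 41.2% and 10.8% of all genes in the same tissues. Tap1, a chain of the peptide transporter, was at 18.4 ± 4.88 FPKM in SHR and 39.2 ± 6.09 FPKM in WKY (-1.07 ± 0.17, adjusted p = 0.00134) in the adrenal gland and differed by -0.95 ± 0.17, adjusted p = 0.00437, in the ventricle. B2m, the partner of class I chains, was at 588 ± 75.4 FPKM in SHR and 716 ± 35.4 FPKM in WKY (-0.29 ± 0.08, adjusted p = 0.0207) in the adrenal gland and was not called in the other tissues. Nlrc5, an activator of class I genes, was at 1.58 ± 0.39 FPKM in SHR and 3.34 ± 0.43 FPKM in WKY (-0.76 ± 0.12, adjusted p = 0.00231) in the ventricle. Psmb8, an immunoproteasome subunit, was higher in the SHR ventricle (0.47 ± 0.09, adjusted p = 0.00511) and in the SHR ganglion (0.81 ± 0.09, adjusted p = 0.000224). Tapbp, the bridge between class I and the transporter, was higher in the SHR adrenal gland (0.42 ± 0.09, adjusted p = 0.00606) and in the SHR ganglion (0.64 ± 0.05, adjusted p = 1.6e-05).

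A single model of all 24 libraries tested, for 32 RT1 genes, whether SHR and WKY were further apart in one tissue than in another. The model took libraries of different tissues as independent, which the labels do not state. Between adrenal gland and ventricle the strain difference differed for 16 of 32, against 34.5% of 14682 genes. Between ganglion and ventricle it differed for 8, against 14.4%, and for 5 without WKY ganglion replicate 2, and between adrenal gland and ganglion for 18, against 29.8%. These shares of all genes are those of the model with all 24 libraries. RT1-M2, RT1-M1-4 and RT1-M1-2 passed the level filter of this model through WKY libraries only. Of the 29 others, 13 differed between adrenal gland and ventricle, 8 between ganglion and ventricle and 15 between adrenal gland and ganglion. All 5 class II genes that differed between adrenal gland and ventricle, RT1-Da, RT1-Db1, RT1-Ba, RT1-Bb and RT1-DMb, had a more negative difference in the adrenal gland, with RT1-Ba at -1.25 ± 0.35 (adjusted p = 0.00926). RT1-A1 had a larger difference in the adrenal gland and the ganglion than in the ventricle, by 0.69 ± 0.11 (adjusted p = 3.23e-05) and 0.58 ± 0.11 (adjusted p = 0.000659), and RT1-CE4 likewise, by 1.42 ± 0.13 (adjusted p = 2.5e-08) and 0.72 ± 0.13 (adjusted p = 0.000566). RT1-N2 was less reduced in the ganglion, by 1.54 ± 0.21 (adjusted p = 2.78e-05) against the ventricle. RT1-O1 differed in all 3 contrasts, and its adrenal minus ganglion value was 1.72 ± 0.24 (adjusted p = 1.25e-05). Of the 42 calls over the 3 contrasts, 9 were lost in at least 1 alternative. Of the 24 fits that each left out 1 library, the ganglion minus ventricle call was lost in 10 for RT1-O1, 7 for RT1-CE5 and 4 for RT1-CE7. The adrenal minus ganglion call was lost in 14 for RT1-Db2, 8 for RT1-S3 and 6 each for RT1-T24-1 and RT1-CE10. Those of RT1-S2 and RT1-DOa were lost with a pseudocount of 0.1.

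The authors' deposited table gives its own log2 ratio of SHR over WKY and a q-value for each gene. Of the RT1 genes tested here, its call at a q-value under 0.05 was the same for 25 of 28 (ventricle), 29 of 31 (adrenal gland) and 24 of 27 (ganglion). Of the RT1 genes with a value there, 4 were higher and 17 lower of 36 in the ventricle, against 16% of all genes with such a q-value. In the adrenal gland 5 were higher and 21 lower of 36, against 31.7%, and in the ganglion 5 were higher and 13 lower of 37, against 8.72%. The largest departure was RT1-S2. Its ratio of mean FPKM was 1.89, 2.18 and 0.89 on the log2 scale in ventricle, adrenal gland and ganglion, while the authors' deposited table gives 0.62 (q = 0.169), -0.06 (q = 0.857) and 0.18 (q = 0.724). The median gap between the 2 measures over all tested genes was 0.04, 0.07 and 0.02, and a gap over 1 occurred in 1 of 12447 genes in the ventricle and in 1 of 12579 in the adrenal gland, which was RT1-S2 in both. A difference of RT1-S2 between the strains thus depends on which of these measures is used. The other calls that differed from the authors' deposited table were those of RT1-M3-1 and RT1-CE13 in the ventricle, RT1-DMa in the adrenal gland, and RT1-Db1 and RT1-Ba in the ganglion.

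**Figure D5:**
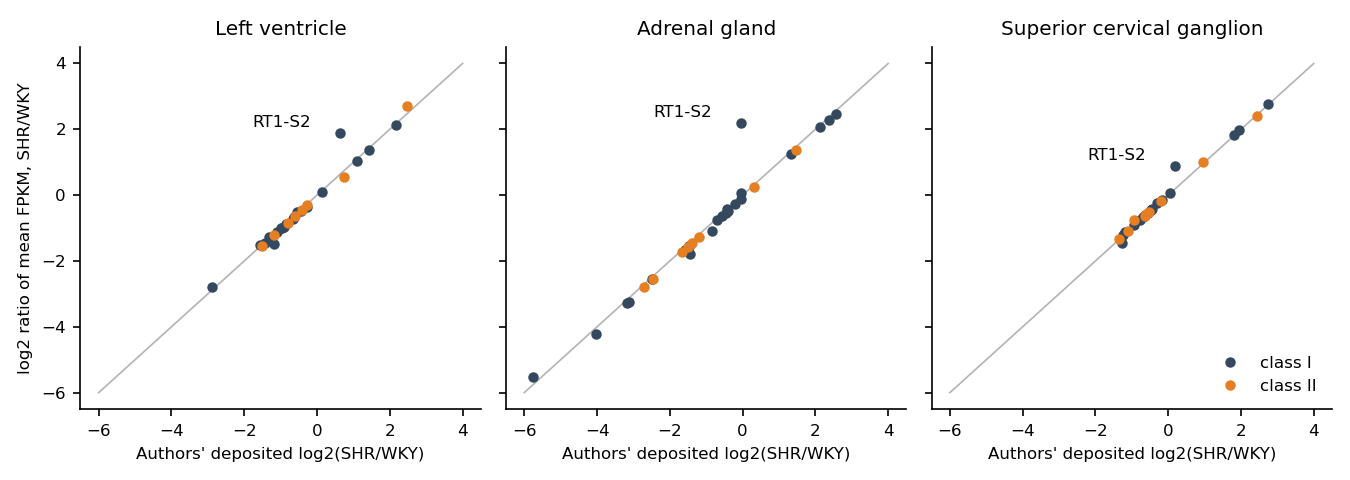
Log2 ratio of mean FPKM, SHR over WKY, against the log2 ratio of SHR over WKY in the authors' deposited table for the tested RT1 genes in each tissue; the line marks equal values. RT1-S2 stands off the line in all 3 tissues, at 1.89 against 0.62 in the ventricle, 2.18 against -0.06 in the adrenal gland and 0.89 against 0.18 in the ganglion.

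Between the first and the last RT1 gene on chromosome 20, GRCr8 places 137 other genes that were measured here. Of those tested, 24 of 81 were called in the ventricle, or 29.6%, with 9 higher and 15 lower in SHR, 42 of 81 in the adrenal gland, or 51.9%, with 16 higher and 26 lower, and 14 of 88 in the ganglion, or 15.9%, with 7 in each direction. The shares of all genes called were 21.2%, 41.2% and 10.8%. Among the 75 tested in all 3 tissues, 2 were higher in each, Ier3 and Nrm, beside 0.725% of all genes, and 1 was lower in each, RGD1562652, beside 0.926%. Ier3, an immediate early gene, was at 101 ± 25.1 FPKM in SHR and 26.3 ± 2.80 FPKM in WKY (1.87 ± 0.18, adjusted p = 0.000103) in the adrenal gland, and it differed by 0.78 ± 0.17, adjusted p = 0.0102, in the ventricle and by 0.45 ± 0.07, adjusted p = 0.00347, in the ganglion. RGD1562652 was at 2.15 ± 0.41 FPKM in SHR and 6.59 ± 0.42 FPKM in WKY (-1.28 ± 0.11, adjusted p = 3.69e-05) in the adrenal gland. No test compared these shares with those of the RT1 genes.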

How the data were processed

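RNA levels were measured by sequencing in 24 libraries of 2 strains and 3 tissues, 4 for each group. FPKM values per gene were computed by the authors, and the build Rnor_6.0 and the tools RSEM 1.3.1, Bowtie2 and DESeq2 1.4.5 are named per the submitters' processing notes, with no role for each. Which annotation and filters were used is not given in the sources used here. The authors' deposited table also holds, per the file headers, a log2 ratio of SHR over WKY and a q-value for each tissue, used here only for the side-by-side comparison. Values are deposited with 2 decimals, and no column was left unused (0). The table lists 22864 genes, of which 2358 are blank and 20506 have values. For 27 genes, symbols that had been turned into dates were restored through their identifiers. The largest share of equal values between 2 libraries was 0.517%, so no library was taken as a duplicate. Ventricle libraries summed to 533805 to 549167 FPKM, adrenal libraries to 493051 to 517693 FPKM and ganglion libraries to 455530 to 465993 FPKM. Read depth is unknown.

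The RT1 genes, marker lists and pathway lists were chosen with earlier results of these data known. In each tissue, genes with at least 1 FPKM in at least 4 of 8 libraries were tested on log2(FPKM + 1) with limma 3.58.1 (R 4.3.3), with trend and robust moderation, two-sided, with Benjamini-Hochberg adjustment over all genes tested and a threshold of 0.05. The difference of strain differences between tissues was a contrast in 1 model of 24 libraries, on genes with at least 1 FPKM in at least 4 of them. The fit was tested on simulated data. Sums of FPKM over a class have no test. Values are given for RT1 genes called in at least 1 tissue and for the most abundant ones, and otherwise as ranges. From the loading lists, named genes were taken by smallest adjusted p, and from the neighbouring genes those called in all 3 tissues. March1 and Xaf1 of the lists had no match. Gene names, order and promoter windows came from RefSeq, GRCr8, in which all 38 RT1 genes matched; no coordinate of the files was used. Promoter identity is the share of identical columns, gaps counted, in a global alignment (Biopython 1.88). Tables were handled with pandas 2.3.3. Alternatives were pseudocounts of 0.1 and 5, no filter on low values, a filter of 5 FPKM, median-of-ratios and quantile scaling, plain moderation, a replicate block, and leaving out each library.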

Additional observations from a re-analysis of the deposited data

Results flagged for a closer look

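In 9 of 184 groups of 4 libraries checked, 1 library lay far from the other 3 of its group, by a rule that chance meets in about 1 in 20 groups. RT1-N3 was at 15.6 FPKM in WKY ventricle replicate 4, where the other 3 WKY libraries were at 20.1 to 21.0 FPKM. RT1-S3 was at 70.1 FPKM in SHR ventricle replicate 2, where the other 3 SHR libraries were at 28.6 to 33.0 FPKM. RT1-T24-3 was at 125 FPKM in SHR ventricle replicate 2, where the other 3 SHR libraries were at 40.6 to 54.0 FPKM. RT1-Db2 was at 0.84 FPKM in WKY ventricle replicate 1, where the other 3 WKY libraries were at 0.19 to 0.28 FPKM. RT1-S2 was at 13.3 FPKM in SHR adrenal replicate 2, where the other 3 SHR libraries were at 9.86 to 10.3 FPKM. RT1-S3 was at 33.9 FPKM in SHR adrenal replicate 2, where the other 3 SHR libraries were at 12.4 to 13.2 FPKM. RT1-O1 was at 3.5 FPKM in WKY ganglion replicate 3, where the other 3 WKY libraries were at 4.58 to 4.78 FPKM. RT1-S3 was at 20.7 FPKM in SHR ganglion replicate 3, where the other 3 SHR libraries were at 11.3 to 12.8 FPKM. RT1-DOb was at 1.5 FPKM in SHR ganglion replicate 2, where the other 3 SHR libraries were at 0.87 to 0.91 FPKM.

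The strain difference of 42 gene and contrast pairs itself differed between tissues (limma, adjusted p under 0.05). Values are the SHR minus WKY difference in one tissue minus that in the other, on the log2(FPKM + 1) scale. RT1-M2, RT1-M1-4 and RT1-M1-2 passed the level filter through WKY libraries only, so their values were set in part by that filter. Of the 42 calls, 9 were lost in at least 1 alternative, those of RT1-O1, RT1-CE5 and RT1-CE7 between ganglion and ventricle and those of RT1-S2, RT1-S3, RT1-T24-1, RT1-CE10, RT1-Db2 and RT1-DOa between adrenal gland and ganglion. For RT1-S2 the log2 ratio in the authors' deposited table is -0.06 in the adrenal gland and 0.18 in the ganglion. The difference was more positive in the adrenal gland than in the ventricle for RT1-O1 0.98, RT1-CE5 0.48, RT1-CE4 1.42, RT1-CE7 0.49, RT1-CE3 0.56, RT1-A2 0.38 and RT1-A1 0.69. It was more negative in the adrenal gland than in the ventricle for RT1-M2 -1.39, RT1-M1-4 -1.30, RT1-M1-2 -1.05, RT1-N3 -0.74, RT1-Da -1.21, RT1-Db1 -1.06, RT1-Ba -1.25, RT1-Bb -1.23 and RT1-DMb -0.88. Between ganglion and ventricle it was more positive in the ganglion for RT1-M3-1 0.39, RT1-N2 1.54, RT1-CE5 0.46, RT1-CE4 0.72, RT1-CE7 0.50, RT1-A2 0.51 and RT1-A1 0.58. It was more negative there for RT1-O1 -0.74. Between adrenal gland and ganglion it was more positive in the adrenal gland for RT1-S2 1.15, RT1-O1 1.72 and RT1-CE4 0.70. It was more negative in the adrenal gland than in the ganglion for RT1-M2 -1.87, RT1-M1-4 -1.28, RT1-M1-2 -1.59, RT1-N2 -1.999, RT1-N3 -1.03, RT1-S3 -1.20, RT1-T24-1 -1.13, RT1-CE10 -0.39, RT1-Da -1.38, RT1-Db2 -0.69, RT1-Db1 -1.07, RT1-Ba -1.39, RT1-Bb -1.40, RT1-DMb -0.87 and RT1-DOa -0.83.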

How the results depend on the processing

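Every count of called RT1 genes stayed within 1.5 times its main value except 2, and no class sum changed sign except without RT1-A1. The shares of all genes called in the alternatives are not given here, so a change in a count can not be told from a change over all genes. With 1 library left out the counts were 17 to 20 (ventricle), 23 to 26 (adrenal gland) and 11 to 17 (ganglion), where 11 was reached without SHR replicate 1 (17 with all libraries). The counts of genes whose strain difference differed between tissues were 15 to 17 for adrenal gland minus ventricle, 13 to 18 for adrenal gland minus ganglion and 5 to 9 for ganglion minus ventricle, where 5 was reached without WKY ganglion replicate 2 (8 with all libraries). The log2 ratio of the class I sums was -0.35 to -0.18 (ventricle), 0.42 to 0.51 (adrenal gland) and 0.29 to 0.39 (ganglion). That of the class II sums was -0.78 to -0.53, -1.97 to -1.77 and -0.74 to -0.40. Without RT1-A1 the class I ratio was -0.68, -0.21 and -0.17, since RT1-A1 holds the largest part of the SHR sum. Differences that were not called changed sign for RT1-O1 in the ventricle, to -0.13 without SHR replicate 2 and -0.03 without WKY replicate 4 (-0.13 to 0.18 over the 8 fits), for RT1-DOb in the adrenal gland, to -0.014 without SHR replicate 3 (-0.014 to 0.23), and for RT1-Da in the ganglion, to 0.058 without WKY replicate 1 (-0.32 to 0.058). The cause was not tested. Counting only the alternatives in which a gene was tested, 17 of 23 ventricle calls, 25 of 26 adrenal calls and 11 of 17 ganglion calls held in all. With 1 library left out, RT1-M2, RT1-M1-4 and RT1-M1-2 in the adrenal gland were tested in only 4 of 8 fits. So were RT1-M1-2 and RT1-Db2 in the ventricle. Some other genes were missing from another setting.

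Same-numbered SHR and WKY libraries deviated together with correlations of -0.04 to 0.16 (ventricle), -0.01 to 0.19 (adrenal gland) and -0.10 to 0.16 (ganglion), so the numbers were not taken as pairs. With the replicate block, 21, 27 and 13 RT1 genes were called in ventricle, adrenal gland and ganglion, and 16, 8 and 18 differed between adrenal gland and ventricle, ganglion and ventricle, and adrenal gland and ganglion. The shares of all genes called with the block are not given here. The depth of the libraries is unknown, and 4 libraries a group limit the precision of weakly expressed genes. Reads shared between class I copies limit each single-copy value.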
